A study of Mus musculus with 24 samples.

Results

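Selective autophagy removes chosen cargo, such as protein aggregates, damaged mitochondria or stretches of endoplasmic reticulum, by tying it to a forming double membrane, the autophagosome, which then fuses with the lysosome. Receptor proteins make the tie: they hold the cargo at one end and, at the other, small ubiquitin-like proteins of the LC3 and GABARAP families that are joined to lipid in the autophagosome membrane. In neurons this turnover is needed for survival, since cells that do not divide cannot dilute damaged material. The 10 genes followed here, of the 54658 in the expression table, are 5 receptors (*Calcoco1*, *Tax1bp1*, *Sqstm1*, *Nbr1* and *Optn*), 2 LC3 genes (*Map1lc3a* and *Map1lc3b*) and 3 GABARAP genes (*Gabarap*, *Gabarapl1* and *Gabarapl2*). They were picked by name, and *Calcoco1* was picked because it is higher in *Cep135*-mutant cortex in these same libraries. Its cortical genotype differences, and its differences with age or from cortex to culture, are therefore given as a description, without a p-value.

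RNA was sequenced from 24 mouse libraries. *Cep135* encodes a centriole protein, and its loss causes microcephaly. The mutants, labelled *Cep135* (-/-), carried in every cell a germline allele with a short CRISPR/Cas9 deletion in the second exon, made in B6.CBA zygotes of a colony then kept on a C57BL/6J background, and the controls, *Cep135* (+/+), were embryos of the same heterozygous matings. Dorsal telencephalon (cortex) was taken at the embryonic days E11.5 and E14.5, and cells of the E14.5 cortices were also cultured for 12 or 24 h as they began to form neurospheres, the floating clusters that neural progenitors make. There were 3 mutant and 3 control libraries in each of these 4 conditions. Each cortex was 1 embryo, and the cultures came from the same 6 embryos as the E14.5 cortices, so that cultures and cortices do not add embryos. The E11.5 embryos came from 2 litters, with both genotypes in each, and the E14.5 embryos from 1 litter. By their sex-linked transcripts, at E14.5 the 3 controls and mutant 6 were male and mutants 1 and 2 female, whereas both sexes occurred in both genotypes at E11.5. The E14.5 cortex of mutant 6 is given as E11.5 in its description field and as E14.5 in its title.

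Values are read counts divided by 1 size factor for each library, as deposited (normalized read counts), from the 3' ends of polyadenylated RNA, with 4732781 to 11645213 reads per library. Differences are on a log2(value + 1) scale with their standard error (SE), and a gene is called when the adjusted p-value (limma, Benjamini-Hochberg over all genes with a mean of at least 10) is below 0.05. All 8 dorsal progenitor markers and all 8 neuron markers had a mean of at least 10 both in cortices and in cultures. 3' reads do not cover the deleted stretch, and *Cep135* itself lay between 171 and 375 in all libraries, with adjusted p-values of 0.850 to 0.941 for the genotype in the 4 conditions, so the genotype could not be checked from expression. The depth at 24 h differed with genotype, at 7903426 to 11645213 reads in mutants and 4732781 to 5709443 in controls.

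*Calcoco1* (ENSMUSG00000023055) lies on the minus strand of chromosome 15, at chr15:102706777-102722178 of GRCm38, and no other annotated gene overlaps it. It encodes a coiled-coil protein described both as a transcriptional coactivator and as a receptor for autophagy of the endoplasmic reticulum. Of the 27 annotated genes within 250 kb of it, 6 had enough reads to test. Their mutant minus control differences over both cortex ages ran from -0.20 to 0.17 and 0 of the 6 were called. The sequence upstream of *Calcoco1* is shown as the promoter of the gene that stood apart between genotypes, and that of *Gabarapl2*, the LC3-like gene with the most negative genotype difference at E14.5, is shown beside it. Each is the 250 bases before the RefSeq start site on GRCm38.p6, at chr15:102722179-102722428 (minus strand) and chr8:111940453-111940702 (plus strand).
Calcoco1: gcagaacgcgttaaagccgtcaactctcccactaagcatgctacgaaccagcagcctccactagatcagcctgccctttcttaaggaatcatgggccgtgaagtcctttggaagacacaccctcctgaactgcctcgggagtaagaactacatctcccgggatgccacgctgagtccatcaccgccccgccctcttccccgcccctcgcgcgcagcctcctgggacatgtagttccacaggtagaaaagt
Gabarapl2: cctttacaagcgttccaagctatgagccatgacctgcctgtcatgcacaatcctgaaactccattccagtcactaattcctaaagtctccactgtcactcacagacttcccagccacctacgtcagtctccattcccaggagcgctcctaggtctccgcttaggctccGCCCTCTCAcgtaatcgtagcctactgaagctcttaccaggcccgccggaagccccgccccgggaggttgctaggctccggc
Capitals mark a match to the core of the antioxidant response element, the site of NRF2, searched as TGANNNNGC on both strands. It is read here on the reverse strand. The E-box core CACGTG, bound by TFEB and other factors of lysosomal genes, and the p53 half-site were searched in the same way. The *Calcoco1* window held 0 matches to any of the 3 motifs and the *Gabarapl2* window only the one marked, and 35.2% of 32851 mouse promoters of this length held the antioxidant core, 6.02% the E-box and 7.13% the p53 half-site. RefSeq windows were found for 9 of the 10 genes (all but *Map1lc3a*), and the antioxidant core also occurred in those of *Tax1bp1*, *Optn* and *Map1lc3b*.

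In E11.5 cortex mutants 1 to 3 had *Calcoco1* counts of 533, 713 and 555, whereas controls 1 to 3 had 280.1, 189.8 and 207. At E14.5 mutants 1, 2 and 6 had 1190.1, 1182 and 749, whereas controls 3, 4 and 5 had 512, 563 and 296. Every mutant cortex was above every control cortex of its age, a pattern that 7.16% of all genes tested had at E11.5 and 7.02% at E14.5. The difference, mutant minus control, was 1.42 (SE 0.17) at E11.5, 1.21 (SE 0.25) at E14.5 and 1.31 (SE 0.17) over both ages, values that were used to choose the gene. It was 0.77 at E14.5 with a term for sex, and 1.43 without the one male mutant, mutant 6, whose age labels disagree. Mutant 6, at 749, was above each of the 3 male controls. At E11.5 the female mutants, at 533 and 555, were above the female control at 189.8, and the male mutant at 713 was above the male controls at 280.1 and 207.

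In culture the *Calcoco1* counts of the genotypes overlapped. At 12 h *Calcoco1* was at 252, 219.9 and 142 in the cultures of mutants 1, 2 and 6 and at 239, 132 and 181 in those of controls 3, 4 and 5. At 24 h it was at 201, 307 and 172 in the mutant cultures and at 281, 275 and 298 in the control cultures. The groups overlapped at both times, and mutants 1 and 6 were below all controls at 24 h. The difference was 0.15 at 12 h (SE 0.30, 95% interval -0.49 to 0.79, limma adjusted p = 0.950), and -0.37 at 24 h (SE 0.20, interval -0.81 to 0.07, limma adjusted p = 0.565). The exact two-sided permutation test over samples gave p = 0.7 at 12 h and p = 0.4 at 24 h, where 3 against 3 samples cannot go below 0.1. The cortical differences had intervals of 1.04 to 1.79 at E11.5 and 0.67 to 1.75 at E14.5, from values that chose the gene. The 12 h interval overlaps the E14.5 one. Against E14.5 cortex the genotype difference was smaller by 1.05 at 12 h and by 1.58 at 24 h, which is a description because the cortex values chose the gene.

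**Figure D1:**
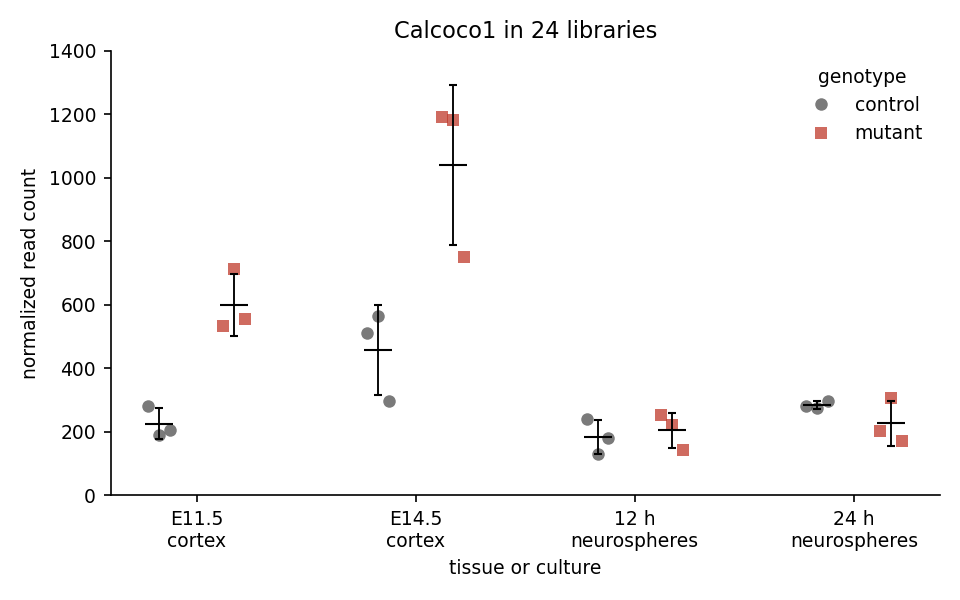
*Calcoco1* normalized read counts (y axis) in each library, by condition (x axis). Grey circles are control and red squares mutant libraries, and bars give the mean ± SD of 3. The mutant cortices lie at 533 to 713 (E11.5) and 749 to 1190.1 (E14.5), above all control cortices of the same age, while the cultures of both genotypes overlap between 132 and 307.

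At 12 h *Calcoco1* was below its cortical count in each embryo. As a ratio to the cortical count, the 12 h cultures of mutants 1, 2 and 6 held 0.211, 0.186 and 0.190, while those of controls 3, 4 and 5 held 0.467, 0.233 and 0.612. At 24 h mutants 1, 2 and 6 had ratios of 0.169, 0.259 and 0.230, and controls 3, 4 and 5 had 0.550, 0.488 and 1.004. The ratios of the mutant embryos were below those of all control embryos at both times, which is a description since the cortical counts chose the gene, and control 5 was back at its cortical level at 24 h. Ordered by mean level, the groups ran from 12 h controls (184) and 12 h mutants (205) through E11.5 controls (226), 24 h mutants (227), 24 h controls (285), E14.5 controls (457) and E11.5 mutants (600.0) to E14.5 mutants (1041). Each group overlapped the next in this order, except E11.5 and E14.5 mutants.

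Some cell type markers also differed between genotypes in the cortex, in either direction. In a bulk sample fewer cells of a type and less RNA per cell cannot be told apart. The summed counts of 8 microglia markers were 798 to 998 in E14.5 mutants and 444 to 504 in E14.5 controls, with no overlap, and 452 to 618 against 303 to 460 at E11.5, with overlap. Of the 7 microglia markers tested over both ages, 1 was called for genotype, the chemokine receptor gene *Cx3cr1* (0.92, limma adjusted p = 0.00272). In the cultures the sum was 6.98 to 67.5, and no microglia marker reached a mean of 10 over the 12 cultures. *Aif1* was at 0 in all 3 mutant cultures at 12 h. The *Calcoco1* counts of the cultures were 132 to 307. The *Cx3cr1* mean was 16.4 in control and 3.25 in mutant cultures at 12 h, and 11.2 and 4.03 at 24 h, a direction opposite to that in cortex that was not tested. Endothelial markers summed to 968 to 1428 in cortex and 24.6 to 110.1 in culture, and mural and meningeal markers to 1788 to 7500 and 129 to 298. At E11.5 the endothelial sums were 1247 to 1428 in mutants and 1070 to 1204 in controls, with no overlap. At E14.5 they were 968 to 1101 against 992 to 1105, with overlap. The mural and meningeal sums of the genotypes overlapped at both ages. Neuron markers summed to 27953 to 28736 in E14.5 mutants and 35606 to 38443 in E14.5 controls, and to 9208 to 9908 against 8666 to 13035 at E11.5, with overlap. The part of these cell types in the *Calcoco1* values was not tested.

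**Figure D2:**
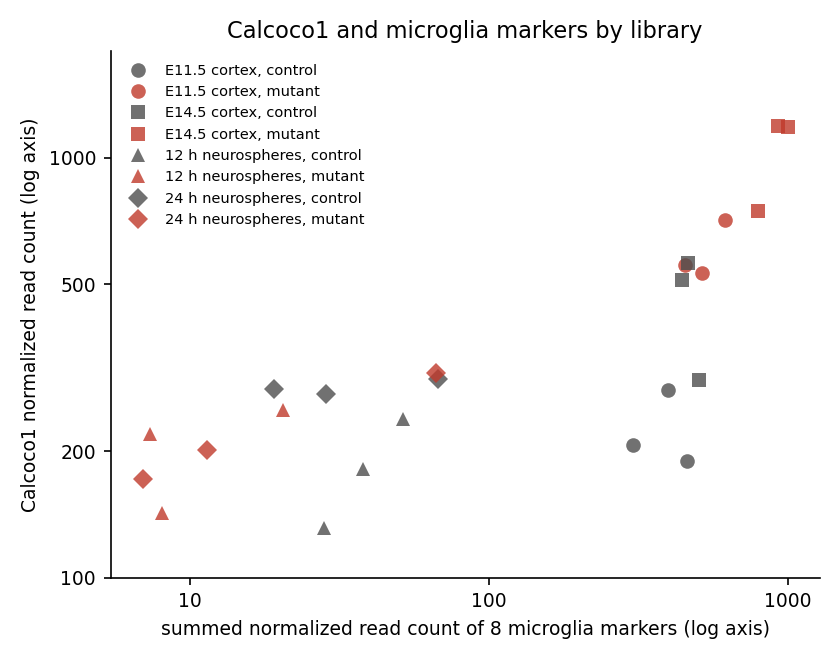
*Calcoco1* normalized read count (y axis) against the summed count of 8 microglia markers (x axis) in each of the 24 libraries, both on log axes, with red symbols for mutants, grey for controls and a shape for each condition. The 12 culture libraries lie at 6.98 to 67.5 on the microglia axis and at 132 to 307 on the *Calcoco1* axis, and the E14.5 mutant cortices are highest on both axes.

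None of the other 9 genes was called for genotype. By limma, 0 of 9 were called between genotypes at E11.5, 0 of 9 at E14.5, 0 of 8 at 12 h and 0 of 9 at 24 h, where 0.0149%, 0.0736%, 0% and 0.271% of all genes tested were called. At an unadjusted p below 0.05 the numbers were 1, 2, 1 and 2, and edgeR and DESeq2 on recovered reads also called 0 at E14.5, 12 h and 24 h. Counts at an unadjusted p, here and below, are given without the share over all genes and are not read as a result. Their median difference was -0.09, -0.11, -0.10 and -0.06 in the 4 conditions, against 0.02, 0.01, -0.02 and -0.01 over all genes. The sign was negative for 6 of 9, 8 of 9, 5 of 8 and 7 of 9. Over all genes tested it was positive for 7087 of 13406, 7027 of 13583, 6404 of 13389 and 6421 of 13300. Without mutant 6 the E14.5 sign was negative for 5 of the 9 genes, when *Sqstm1* (0.06), *Map1lc3a* (0.07) and *Gabarapl1* (0.01) turned positive. Over both cortex ages the 9 differences ran from -0.34 (*Nbr1*, limma adjusted p = 0.423) to 0.19 (*Optn*, adjusted p = 0.893).

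Among the receptors, *Tax1bp1*, which binds ubiquitinated cargo and also restrains inflammatory signaling, had mutant minus control differences of -0.15 to -0.07 in the 4 conditions, none of them called. Its E11.5 counts were 1138, 1146 and 1146 in mutants, against 1149, 1325 and 1203 in controls. *Sqstm1*, encoding p62, which gathers ubiquitinated proteins and binds KEAP1, differed between genotypes by -0.09 to 0.05. The *Nbr1* counts, for a p62 partner with a similar domain plan, were 195, 219 and 238 in mutant and 276, 299 and 246 in control E14.5 cortex. These did not overlap, but the difference of -0.33 was not called (limma adjusted p = 0.547). Its difference was -0.35 at E11.5, 0.21 at 12 h and 0.10 at 24 h, not called at any of them. *Optn*, encoding optineurin, a receptor for damaged mitochondria, was at 0 to 27.6 in all libraries and at 12 h fell below the level needed for the test.

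The LC3 and GABARAP genes are the membrane side of the tie. In E14.5 cortex *Gabarapl2* was at 585, 711 and 687 in mutants, against 928, 1005 and 796 in controls, without overlap, a difference of -0.46 (SE 0.14, limma adjusted p = 0.419). The *Gabarapl2* difference was -0.09 at E11.5, 0.18 at 12 h and -0.06 at 24 h. *Gabarap* was at 919, 856 and 852 against 948, 974 and 921, a difference of -0.11. *Gabarapl1* was at 663, 579 and 659 against 991, 808 and 793 at 12 h. At 24 h it was at 712, 736 and 664 against 899.8, 1082 and 853, and the groups overlapped at neither time. The *Gabarapl1* differences were -0.44 at 12 h (adjusted p = 0.913) and -0.42 at 24 h (SE 0.13, adjusted p = 0.252), both from limma, and its E11.5 difference was -0.31 (adjusted p = 0.630). *Map1lc3b*, the LC3 gene most often used to follow autophagosomes, was at 1570.0, 1269 and 1608 in mutant and 1949.9, 1945 and 2039 in control cultures at 24 h, a difference of -0.42 (SE 0.12, limma adjusted p = 0.194). *Map1lc3a* was at 755, 704 and 670.0 in mutant and 996, 858 and 802 in control cultures at 12 h, a difference of -0.31, and its difference was 0.16 at E11.5, -0.16 at E14.5 and -0.25 at 24 h.

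Where the genotypes did not overlap among the other 9 genes, the mutants were lower each time. Mutants lay wholly below controls for *Tax1bp1* and *Gabarapl1* at E11.5, for *Nbr1*, *Gabarap* and *Gabarapl2* at E14.5, for *Tax1bp1*, *Map1lc3a* and *Gabarapl1* at 12 h and for *Map1lc3b* and *Gabarapl1* at 24 h. Over all genes tested, 6.11%, 6.71%, 5.94% and 9.06% were wholly lower in mutants. *Tax1bp1* and *Gabarapl1* had negative differences in 4 of 4 conditions, that of *Gabarapl1* at E14.5 (-0.10) turning to 0.01 without mutant 6, and the E14.5 cortices and both cultures share their embryos. At 24 h, the condition of the depth gap, the transthyretin gene *Ttr*, a marker of both choroid plexus and liver, was at 4826 to 16344 in mutant cultures and 764 to 3509 in control cultures. The other 10 liver markers summed to 118 to 395 against 11.3 to 27.0, and the other 5 choroid plexus and hem markers to 653 to 794 against 1011 to 1303. At 12 h *Ttr* was at 4507 to 15693 in mutants and 971 to 3608 in controls. The other choroid plexus and hem markers summed to 579 to 818 against 889 to 1401 there, and the other liver markers overlapped. In the 24 h cultures the noncoding RNA *Gm42418*, which overlaps ribosomal RNA sequence, took 20.5 to 23.0% of mutant and 6.26 to 13.9% of control counts. Their part in the culture differences of *Map1lc3b*, *Gabarapl1*, *Tax1bp1* and *Map1lc3a* was not tested. No interaction of genotype with age, culture or culture time was called for any gene tested by limma (0% of all genes), and 0 of the members tested for one had an unadjusted p below 0.05. DESeq2 called 5 and 20 of all genes for the interaction with culture at 12 and 24 h, 0 of them among the other 9. *Calcoco1* was left out of that count, since the cortex values chose it.

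**Figure D3:**
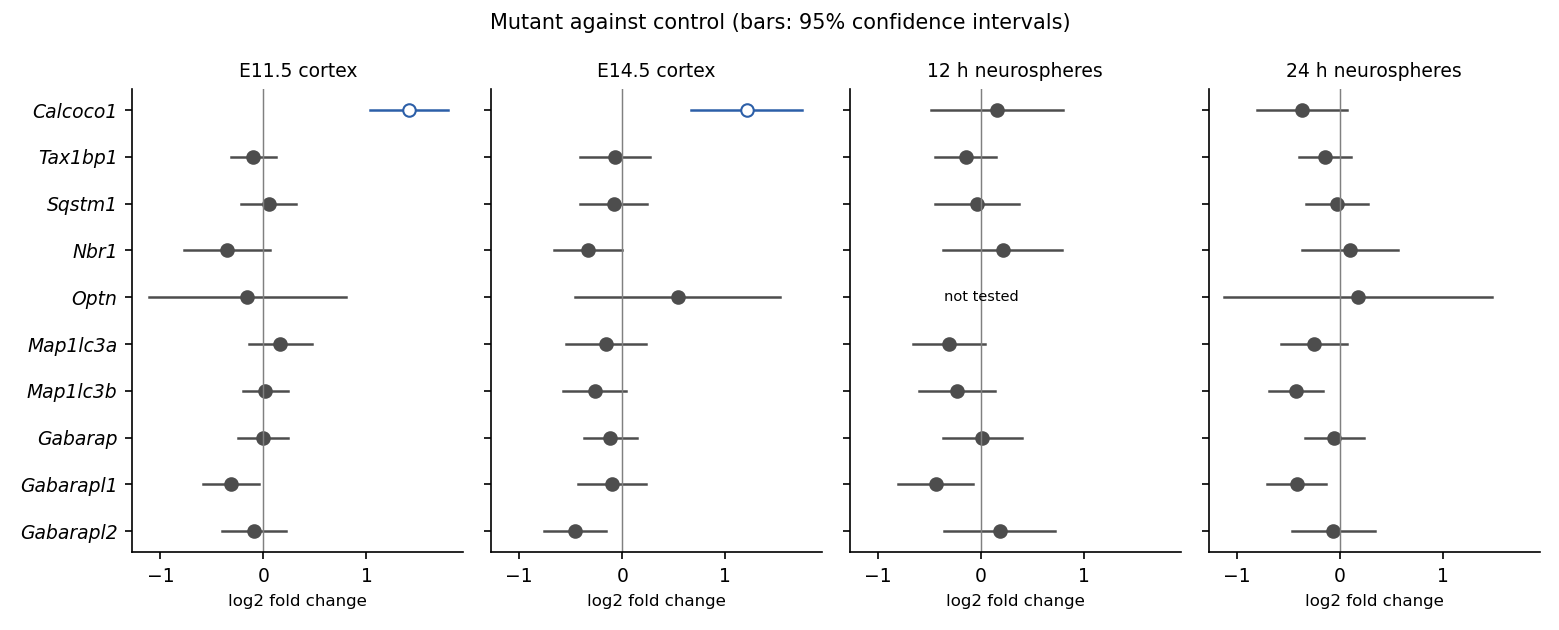
Mutant minus control differences of log2(value + 1) (x axis) for the 10 genes (y axis) in the 4 conditions. Points are the fitted differences and bars their 95% intervals, open blue circles mark *Calcoco1* where no test applies and grey points were not called. *Calcoco1* stands at 1.42 and 1.21 in cortex, and the other genes lie between -0.46 and 0.54.

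**Figure D4:**
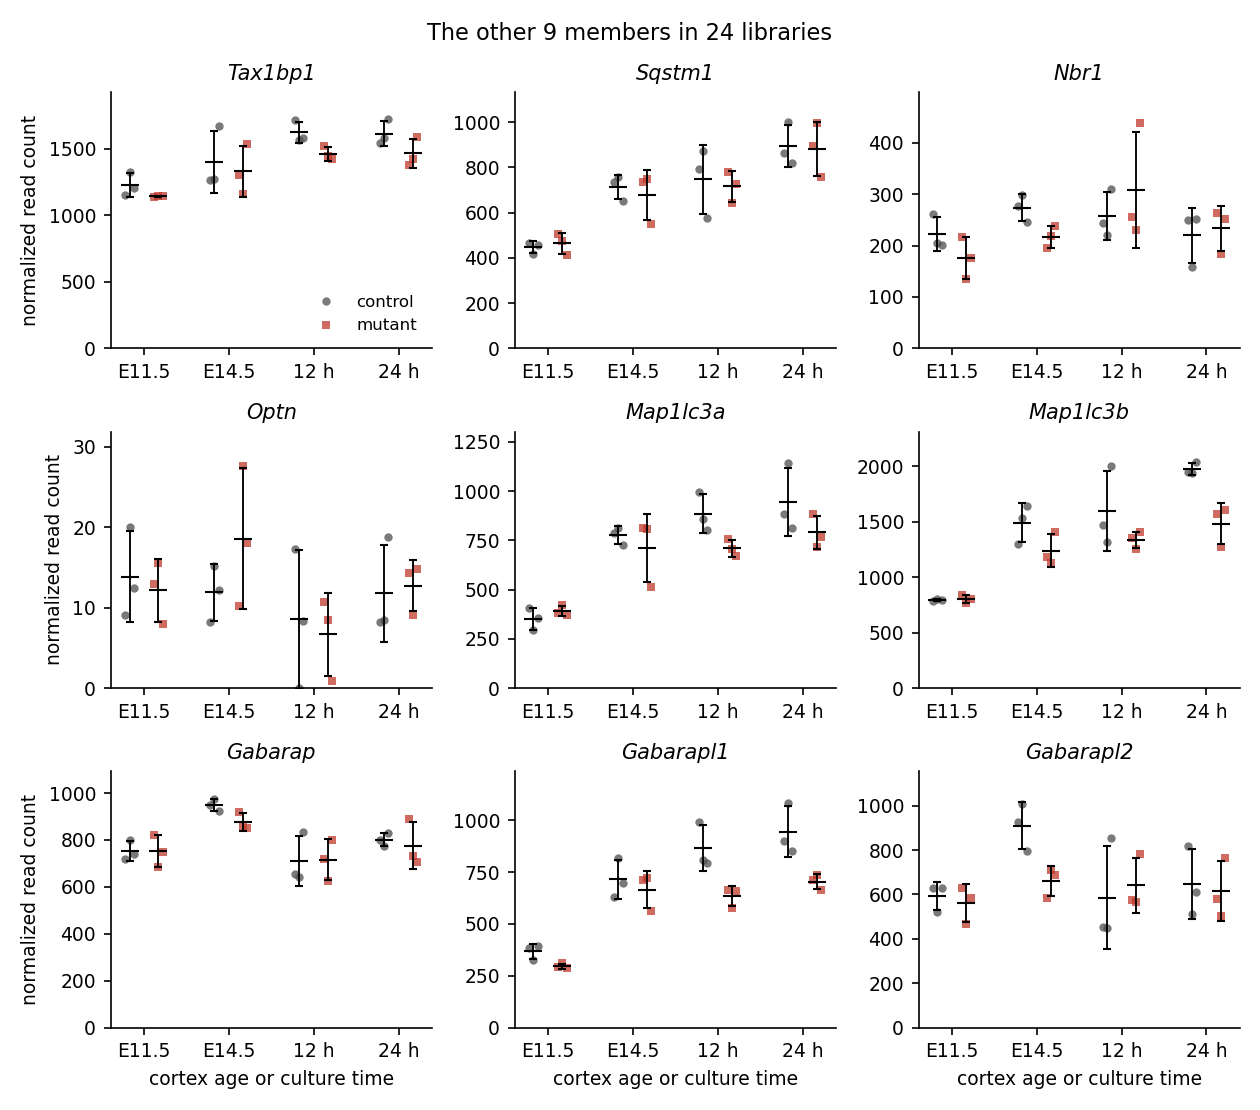
Normalized read counts (y axis, a scale of its own in each panel) of the other 9 genes in each library, by condition (x axis). Grey circles are control and red squares mutant libraries, and bars give the mean ± SD of 3. *Optn* stays at or below 27.6, *Gabarapl1* mutant cultures lie below control cultures at both times, and E14.5 exceeds E11.5 for *Gabarapl1* and *Map1lc3a* in both genotypes.

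From E11.5 to E14.5, with genotype in the model, 8 of 10 rose and 0 fell, where 53.1% of all genes tested were called (23.8% higher and 29.3% lower). The 8 include *Calcoco1*, whose age difference is a description, since these cortices entered its choice. *Gabarapl1* rose most, by 1.05 (SE 0.10, limma adjusted p = 2.08e-07), from 287 to 395 at E11.5 to 562 to 818 at E14.5. *Map1lc3a* rose by 0.99 (SE 0.12, adjusted p = 5.30e-06), from 296 to 423 to 511 to 815. For both the ages did not overlap. *Calcoco1* rose by 0.88 (SE 0.17), by 0.98 among controls and 0.77 among mutants when each genotype was fitted alone.

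*Map1lc3b* rose by 0.76 (SE 0.09), *Sqstm1* by 0.60 (SE 0.09), *Gabarapl2* by 0.43 (SE 0.11), *Nbr1* by 0.32 (SE 0.12) and *Gabarap* by 0.28 (SE 0.07). The call of *Nbr1* (limma adjusted p = 0.0351) was lost without any one of 8 libraries, namely E14.5 mutants 2 and 6, E14.5 controls 3 and 4, E11.5 mutants 2 and 3 and E11.5 controls 2 and 3, with adjusted p-values of 0.0541 to 0.0927 (limma). *Tax1bp1*, at 0.20 (limma adjusted p = 0.0811, or 0.0476 without E14.5 mutant 2), and *Optn*, at 0.17, were not called. The median of the 10 genes was 0.52, against -0.08 over all genes. With controls alone 7 passed the threshold and with mutants alone 5, *Calcoco1* among them both times. Of all genes 18.3% and 18.4% were called higher. The E14.5 counts lay wholly above the E11.5 counts for 7 of the 10 in controls and 7 in mutants, as they did for 22.8% and 23.1% of all genes. The median and all these numbers include *Calcoco1*, whose age difference is a description. Age and litter cannot be told apart. Neuron markers rose with age for 8 of 8 (median 1.79), from sums of 8666 to 13035 to 27953 to 38443, and of the 8 progenitor markers 6 fell and 2 rose. The part of this cell makeup in the rise of the autophagy genes was not tested.

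At 12 h against the E14.5 cortex, *Gabarap* was the only gene called once *Calcoco1* was set aside, and it was lower. The fit had no term for the embryo, although cultures and cortices came from the same embryos. Of all genes tested 30.2% were called (14.1% higher and 16.1% lower). The E14.5 cortices of both genotypes entered the choice of *Calcoco1*, so its differences from them are given as a description with no p. They were -1.82 (SE 0.24) over both genotypes, -1.30 (SE 0.28) among controls alone and -2.35 (SE 0.25) among mutants alone. *Gabarap*, a family member that also binds GABA receptor subunits, fell by 0.36 (SE 0.10, limma adjusted p = 0.0105), from 852 to 974 in cortex to 626 to 832 at 12 h, without overlap. Neither genotype alone gave a call for it, and of all genes 8.17% were called lower among controls alone and 4.99% among mutants alone. *Gabarap* and *Calcoco1* were the 2 genes whose 12 h counts lay wholly below the cortical counts within each genotype. Of all genes 19.4% did so in controls and 17.3% in mutants. *Gabarapl2*, at -0.38 (limma adjusted p = 0.106), was not called, and was called without the 12 h library of mutant 6 (adjusted p = 0.0300) or of control 5 (adjusted p = 0.0447). The remaining 7 genes had differences from -1.40 (*Optn*, adjusted p = 0.139) to 0.18 (*Tax1bp1*, adjusted p = 0.168).

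The marker sums of microglia, endothelium and mural and meningeal cells given above were lower in every culture than in every cortex, and their part in these differences was not tested. Between 12 and 24 h of culture 0 of 9 genes were called (limma, 0.292% of all genes), 3 had an unadjusted p below 0.05, and edgeR and DESeq2 called 0. The values were 0.40 for *Calcoco1* (SE 0.19, limma adjusted p = 0.515), 0.28 for *Sqstm1* (adjusted p = 0.419) and 0.24 for *Map1lc3b* (adjusted p = 0.471), and the other 6 ran from -0.30 (*Nbr1*) to 0.15 (*Gabarap*).

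**Figure D5:**
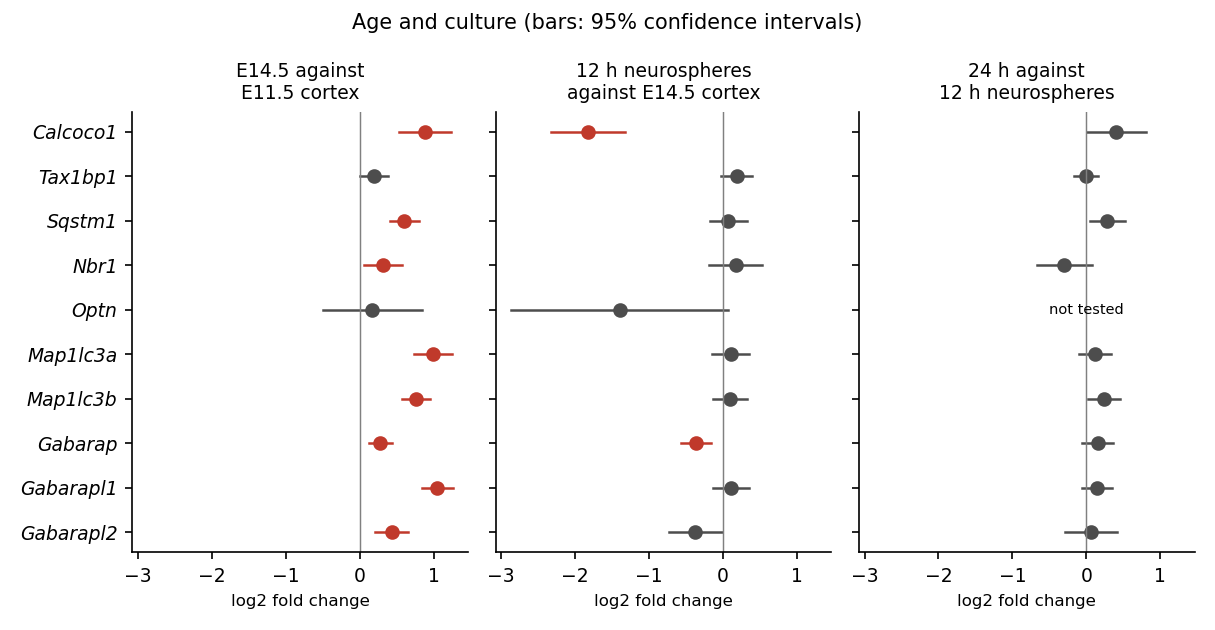
Differences of log2(value + 1) (x axis) for the 10 genes (y axis) between E14.5 and E11.5 cortex, between 12 h cultures and E14.5 cortex and between 24 and 12 h cultures. Points are fitted differences with 95% intervals, red where the fit passed the threshold and grey where not. With age 8 genes are red, all higher, up to 1.05, and on culture *Calcoco1* at -1.82 and *Gabarap* at -0.36. The red points of *Calcoco1* are a description and not counted as support, since the cortices entered its choice.

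The wider autophagy pathway was followed through 118 gene symbols, 115 of them in the table: other receptors, partners of the receptors, the ULK kinase complex that starts autophagosome formation, the lipid kinase, lipid supply, LC3 conjugation, fusion with the lysosome, lysosomal enzymes, NRF2 targets and p53-linked autophagy genes. Between genotypes 0 of 109 (E11.5), 0 of 107 (E14.5), 0 of 106 (12 h) and 0 of 107 (24 h) were called by limma, with 9, 8, 2 and 8 at an unadjusted p below 0.05. Over both cortex ages 1 of 107 was called, where 0.139% of all genes were. It was *Sesn2*, a stress-induced inhibitor of mTORC1, at 85.8 to 129 in mutants and 33.3 to 52.1 in controls at E11.5. At E14.5 it was at 45.4 to 86.9 and 32.7 to 38.8, and the difference over both ages was 1.01 (SE 0.18, limma adjusted p = 0.0367).

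With age 49 of 107 pathway genes were called, 30 higher and 19 lower, or 45.8%, below the 53.1% of all genes. The 5 higher genes with the smallest p were *Rb1cc1*, the scaffold of the ULK complex (0.64), *Ulk2*, one of its kinases (0.68), *Tecpr1*, a lysosomal tethering factor (0.79), *Vps39*, of the HOPS fusion complex (0.76), and *Scarb2*, a lysosomal membrane protein (0.68), with limma adjusted p-values of 2.33e-05 to 7.69e-05. The 5 lower genes were *Nup62*, a nuclear pore protein (-0.78), the peroxiredoxin gene *Prdx1* (-1.08), the lysosomal glucuronidase gene *Gusb* (-1.10) and the mitochondrial receptors *Bcl2l13* (-0.58) and *Phb2* (-0.71), with adjusted p-values of 8.16e-07 to 0.000297. By list, *Rb1cc1* counts in both the ULK complex and the partners, and *Tecpr1* in both the partners and fusion. For the ULK complex 5 of 5 genes rose. Of the others, 5 of 20 receptors rose and 4 fell, 2 of 8 partners rose and 2 fell, 2 of 8 lipid kinase genes rose and 0 fell, and 1 of 8 lipid supply genes rose and 2 fell. For conjugation it was 1 and 2 of 11, for fusion 6 and 2 of 14, for lysosomal genes 8 and 3 of 23, for NRF2 targets 0 and 3 of 7 and for p53-linked genes 2 and 1 of 5.

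On culture 23 of 107 pathway genes were called, 8 higher and 15 lower, or 21.5%, against 30.2% of all genes. The higher genes with the smallest p were *Sesn2* (1.84, limma adjusted p = 1.60e-05), *Nup62* (0.41), the lipid scramblase gene *Tmem41b* (0.52), *Nfe2l2*, which encodes NRF2 (0.60), and *Atg16l1*, of the LC3 conjugation machinery (0.54). The lower genes were the lysosomal protease gene *Ctsb* (-1.09, limma adjusted p = 5.26e-05), the fusion SNAREs *Stx17* (-1.02) and *Vamp8* (-2.16), *Atg12* of the conjugation machinery (-0.58) and the lysosomal hexosaminidase gene *Hexa* (-1.39). Of the 23 lysosomal genes tested 8 fell and 1 rose, and of the 20 receptors 3 fell and 0 rose. Of all genes tested 16.1% were called lower and 14.1% higher. The 3 receptors that fell were *Bnip3* (-1.37), *Bnip3l* (-0.77) and *Fundc1* (-0.59), which are known as receptors for mitochondria. Others of the list also are, among them *Bcl2l13* (-0.28, limma adjusted p = 0.0642) and *Phb2* (0.21, limma adjusted p = 0.395), and none of these was called. Between 12 and 24 h, 0 of 107 were called by limma and 11 had an unadjusted p below 0.05.

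The genes whose log2 values followed *Calcoco1* most closely over the 24 libraries were *Ankrd46* (Pearson r 0.82), *Cox4i1* (0.81), *Ppp1r1a* (0.80), *Sh3bgrl3* (0.79) and *Dynll2* (0.79), out of 13678. Over the 24 deviations from the group means they were *Sh3bgrl3* (0.85), *Foxj1* (0.84), *Guk1* (0.81), *B4galnt1* (0.81) and *Pycrl* (0.78). *Sh3bgrl3* was in both sets. The libraries share embryos, depth and cell makeup, and the values are descriptions. For the other 9 autophagy genes r with *Calcoco1* ran from -0.51 (*Tax1bp1*) to 0.47 (*Optn*) over the 24 libraries, and from -0.49 (*Tax1bp1*) to 0.50 (*Map1lc3a*, ranked 854 of 13678) over the deviations. Among themselves the closest pair was *Map1lc3a* and *Gabarapl1* (0.95 over libraries and 0.77 over deviations). *Sqstm1* and *Map1lc3b* were at 0.76 over libraries but at -0.73 over deviations from the group means, so that they moved together across conditions and apart among libraries of 1 group.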

How the data were processed

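RNA of embryonic mouse cortices and of neurospheres cultured from them was measured by QuantSeq 3' FWD, a stranded, oligo(dT)-primed method that reads transcript 3' ends. As the study's methods describe, the authors checked reads with FastQC 0.11.7, aligned them with TopHat 2.0.10, which ran on Bowtie 1.0.0, to the mouse build GRCm38, handled alignments with SAMtools 0.1.19 and counted reads per gene of a GENCODE annotation with HTSeq 0.6.1. The deposited table holds a signal, read counts divided by 1 size factor for each library, with 1 column for each of the 24 samples. How the factors were computed is not given in the sources used here. Because each library has 1 step size, whole reads could be recovered, and 484666 of 484666 values above 0 were whole multiples within a tolerance of 1e-06. In control 1 of E11.5 the step, 1.00769, was too near 1 to be told from rounding. Its reads were not taken as recovered, so no count test used that library.

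The members and all gene lists were chosen with earlier results of these data known. Values were analysed as log2(value + 1) with limma 3.58.1 (intensity trend, R 4.3.3), using the libraries of each comparison and genes whose mean there reached 10, with Benjamini-Hochberg adjustment over all genes tested. By the rule for named genes, all 10 members were given in every comparison, by name or within a range, and of the pathway lists up to 5 called genes in each direction with the smallest p, as well as the 5 nearest genes to *Calcoco1* by Pearson correlation over libraries and over deviations. The receptors named for the culture comparison, *Spi1*, *C1qb* and *Cx3cr1* were named after their values were seen. Alternatives were TMM factors, quantile normalization, other filters and pseudocounts, edgeR 4.0.16 and DESeq2 1.42.0 on the recovered reads where every library of a comparison had them, terms for sex and *Gm42418* share, a litter block, an embryo block, 1 genotype alone and leaving out each library. Sex was read from *Xist* and Y-linked transcripts. The embryo numbers pair cortices and cultures because the labels give the same animal, and the 18 pairs of libraries deviated together with correlations of -0.11 to 0.24 (median 0.14). P-values for genotype and for age measure the spread between embryos, or between cultures of those embryos. The main fits of culture and culture time, interactions included, had no term for the embryo. They treated libraries of the same embryo as independent. No 2 libraries held identical values. The fits were tested on simulated data. Reads shared with paralogs or processed pseudogenes of the LC3 and GABARAP genes were not checked. Promoter sequences are from RefSeq on GRCm38.p6.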

Additional observations from a re-analysis of the deposited data

How the results depend on the processing

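The number of the 10 genes called with age was 5 with mutant libraries only, and the number called on culture was 1 with a term for *Gm42418* share, 1 with control libraries only and 1 with mutant libraries only, where *Gabarap* was lost. Leaving out 1 library gave 7 to 8 genes called with age and 2 to 3 on culture. With the embryo as a replicate block, 2 were called on culture and 0 with culture time, and the block changed no call. The counts with age and on culture include *Calcoco1*, whose differences there are a description. The *Calcoco1* difference at 12 h, 0.15, reversed to -0.33 with a term for sex, to -0.0139 without mutant 1 and to -0.0654 without control 4, with a range of -0.0654 to 0.394 over the libraries left out. At 24 h that range was -0.609 to -0.194. Its genotype by age value, -0.21, reversed to 0.0544 with the *Gm42418* term and to 0.0115 without E14.5 mutant 6, over a range of -0.494 to 0.0115 without single libraries. With Spearman correlations 2 of the 5 nearest genes over 24 libraries and 1 of the 5 over deviations were shared, and the nearest gene over libraries was then the myeloid factor gene *Spi1* (rho 0.81), with the microglia marker *C1qb* (rho 0.78) also among its 5 nearest. With age, *Tax1bp1* was called with TMM factors and with the *Gm42418* term, and *Gabarapl2* on culture with quantile normalization. Over all genes, DESeq2 called 64 against 10 by limma at E14.5, 9 against 0 at 12 h, 182 against 36 at 24 h and 160 against 39 with culture time. It called 5 and 20 against 0 for the genotype by culture interactions at 12 and 24 h. The causes were not tested. With 3 libraries a group, differences of the size of -0.46 were not called at E14.5.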
